A study of Mus musculus with 56 samples.

Results

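Leydig cells lie between the seminiferous tubules of the testis and make testosterone and insulin-like peptide 3. For this function 10 of the 53379 genes in the count table were followed. They were chosen by name as the luteinizing hormone receptor, the steps of testosterone synthesis, a master regulator and the peptide hormone, and all 10 were found in the table. The libraries were bulk RNA-seq of total RNA from C57BL/6 male mice, and the labels name no treatment, mutation or transgene. The testis, the efferent ductules, the vas deferens and 4 stretches of the epididymis (initial segment, caput, corpus and cauda) were each sampled at 3 months (young group) and at 21 months (elderly group), with 4 libraries per region and age and 56 in all. By the study's methods the 7 regions were dissected from the same 4 mice at each age, after fat and connective tissue had been trimmed away. Whole regions were used, so every value is a mixture of cell types, and fewer Leydig cells and less RNA per Leydig cell cannot be told apart.

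Testosterone synthesis starts when luteinizing hormone binds its receptor (Lhcgr) on the Leydig cell and raises cyclic AMP. Star then carries cholesterol into the mitochondrion, where Cyp11a1 cuts its side chain with electrons passed on by ferredoxin (Fdx1). In the endoplasmic reticulum, 3-beta-hydroxysteroid dehydrogenases (Hsd3b1 and Hsd3b6 in the mouse), Cyp17a1 and Hsd17b3 complete the route to testosterone. Nr5a1 (SF-1) is a nuclear receptor that controls many of these genes, and Insl3, which directs testis descent in the fetus, is widely used as a marker of mature Leydig cells.

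The testis libraries held 16915370 to 19684956 counts, within the range of 11125279 to 20561967 over all 56. Levels are given as CPM (counts scaled to a common library total) on 1 scale set over all libraries by TMM, a method that corrects for differences in RNA composition. The label of the testis libraries held against germ cell markers: 10 germ cell genes summed to 11172 to 13008 CPM at 3 months and 11978 to 13218 CPM at 21 months. In the other regions the mean of the same sum was between 0.133% and 4.04% of the testis mean of the same age. The gene Gm42418 took 49.7% of the counts of 1 library of the caput at 3 months and 1.27% to 36.0% elsewhere.

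Hsd3b6 and Cyp11a1, which changed with age in the testis, and the neighbour of Hsd3b6 that did not pass the test, Hsd3b1, are shown here with the 250 bases before their RefSeq start site on GRCm38.p6, together with Insl3, whose upstream window lies inside another gene. Each line reads 5′ to 3′ along the gene. RefSeq windows were at hand for 7 of the 10 genes. Cyp11a1 has 2, and the one shown is that whose start site lies inside the GENCODE gene. The other (chr9:57997774-57998023) lies upstream of the gene and is not printed.
Hsd3b6 (chr3:98814444-98814693, minus strand): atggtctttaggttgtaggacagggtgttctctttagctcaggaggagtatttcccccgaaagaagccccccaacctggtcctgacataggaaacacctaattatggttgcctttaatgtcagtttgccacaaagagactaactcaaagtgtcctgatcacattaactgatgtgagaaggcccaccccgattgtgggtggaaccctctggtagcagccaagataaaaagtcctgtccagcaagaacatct
Hsd3b1 (chr3:98859795-98860044, minus strand): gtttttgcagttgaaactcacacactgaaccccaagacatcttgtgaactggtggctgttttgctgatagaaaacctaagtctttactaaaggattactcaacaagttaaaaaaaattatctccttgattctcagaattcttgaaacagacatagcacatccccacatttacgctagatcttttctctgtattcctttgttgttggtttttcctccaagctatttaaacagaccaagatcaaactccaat
Cyp11a1 (chr9:58014702-58014951, plus strand): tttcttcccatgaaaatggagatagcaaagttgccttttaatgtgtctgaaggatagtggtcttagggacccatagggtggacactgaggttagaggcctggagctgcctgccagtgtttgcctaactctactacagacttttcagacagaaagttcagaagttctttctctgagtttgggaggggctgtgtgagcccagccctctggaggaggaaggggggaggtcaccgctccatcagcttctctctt
Insl3 (chr8:71689002-71689251, plus strand): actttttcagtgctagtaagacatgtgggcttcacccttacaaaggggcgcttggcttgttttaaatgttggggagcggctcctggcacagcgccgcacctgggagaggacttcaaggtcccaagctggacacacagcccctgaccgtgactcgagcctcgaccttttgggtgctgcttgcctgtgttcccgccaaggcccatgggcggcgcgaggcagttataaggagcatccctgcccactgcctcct
Each window was searched on both strands for AAGGNCA, the core bound by NR5A1, for AAAGGTCA, bound by NR4A1 and itself a form of the first, and for TGACGTCA, the cyclic AMP response element. A match would be in capitals, and these windows held none. AAGGNCA was in 17.5% of 32851 RefSeq windows of the same length, AAAGGTCA in 1.34% and TGACGTCA in 1.55%. The other window of Cyp11a1 and those of Fdx1, Hsd17b3 and Lhcgr held none of the 3 either. The search speaks only of these letters in these bases.

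At 3 months, the order of levels in the testis, in CPM per kilobase of exon so that genes of different length can be compared, was led by Cyp17a1 at 80.2 ± 15.4 (SD, n = 4). Hsd3b1 at 36.7 ± 2.39 and Hsd3b6 at 34.0 ± 7.15 followed, and their libraries overlapped each other but not those of Cyp17a1. Cyp11a1 at 19.3 ± 3.77, Insl3 at 14.8 ± 2.23 and Hsd17b3 at 13.05 ± 0.356 came next, and the libraries of each overlapped those of the next. Nr5a1 at 8.87 ± 0.815, Star at 8.21 ± 1.24 and Fdx1 at 7.89 ± 0.765 did not separate from each other. Lhcgr was lowest, at 1.13 ± 0.135. In elderly testis Star came directly after Hsd3b1, at 16.8 ± 2.07, and its libraries overlapped those of Hsd17b3 at 12.9 ± 2.39 and of Cyp11a1 at 12.8 ± 1.61. Hsd3b6 at 55.8 ± 8.30 stood above Hsd3b1 at 40.9 ± 6.52 with no overlap of their libraries.

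To determine which steps of the route differed between young and elderly testis, age was tested across all genes by the edgeR quasi-likelihood F-test, with genes called at a Benjamini-Hochberg adjusted p under 0.05. Of the 10 genes, 2 rose (Star and Hsd3b6), 1 fell (Cyp11a1) and 7 did not pass. In the same test 169 of 30031 genes, or 0.563%, were called, 0.353% as higher and 0.210% as lower in elderly testis. Young and elderly libraries were fully separate for 2 of the 10 (Star and Hsd3b6) and for 6.31% of all genes tested. The median log2 fold change of the 10 was -0.09, beside -0.0063 over all genes tested.

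**Figure D1:**
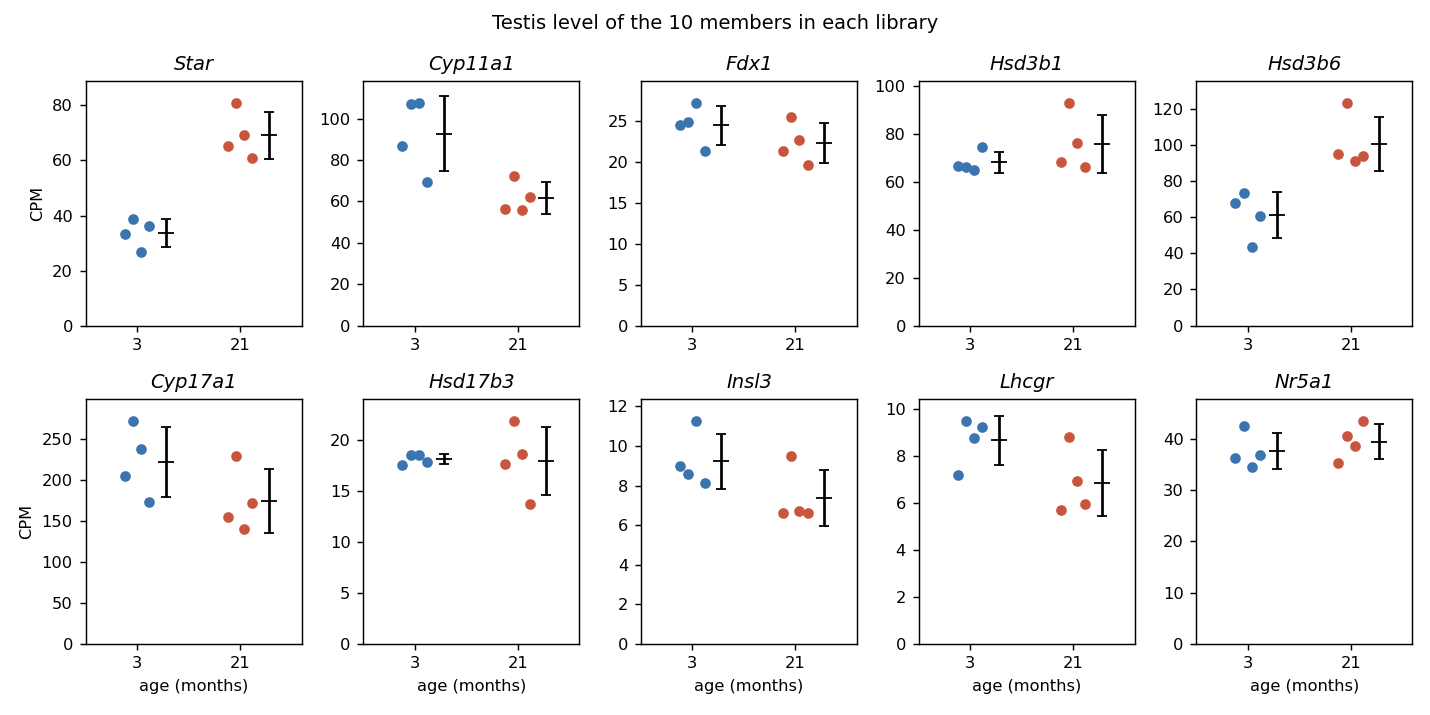
Testis levels of the 10 genes in CPM (y axes start at 0 and differ between panels) at 3 and 21 months, 1 point per library, with the mean and SD as a bar beside the points. The 4 elderly libraries of Star, at 60.9 to 80.8 CPM, sat above all 4 young ones, and the same held for Hsd3b6.

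Star (chr8:25806555-25815982) encodes the protein that delivers cholesterol to the inner mitochondrial membrane, the step that limits the rate of steroid synthesis. It measured 33.3, 38.6, 26.8 and 36.4 CPM in the young libraries and 65.3, 80.8, 69.2 and 60.9 CPM in the elderly ones. All elderly libraries lay above all young ones. The log2 fold change was 1.02 (SE 0.09, adjusted p = 1.24e-06 by the edgeR quasi-likelihood test), a 2.02-fold rise. Star was the only one of the 10 that also passed when all 56 libraries shared 1 fit, with an adjusted p of 0.00331.

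Cyp11a1 (chr9:58006411-58027023), the side-chain cleavage enzyme that makes pregnenolone, moved the other way. Its levels were 87.0, 107, 107 and 69.6 CPM in young testis and 56.1, 72.4, 55.7 and 62.1 CPM in elderly testis. The groups overlapped only in the lowest young library and the highest elderly one. The log2 fold change was -0.60 (SE 0.10, adjusted p = 0.00255), or 0.659 of the young level. In a fit of all 56 libraries, which share 1 estimate of spread over regions, the fold change was the same but its adjusted p was 1, and the same was so for Hsd3b6. A long non-coding RNA gene, Gm17322, shares 145 of the 4804 exon bases of Cyp11a1 on the same strand.

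Fdx1 (chr9:51943306-51963556), the electron donor of Cyp11a1 and of other mitochondrial enzymes in many tissues, was at 24.5, 24.9, 27.2 and 21.4 CPM at 3 months and at 21.4, 25.5, 22.7 and 19.6 CPM at 21 months. The groups overlapped. The log2 fold change was -0.15 (SE 0.09, adjusted p = 0.584), with a 95% interval from -0.32 to 0.02. Cyp11a1 thus fell without a change past the test in its electron donor, and the difference between the 2 genes was not tested.

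Because Star and Cyp11a1 act one after the other in the same mitochondrion, their counts were set side by side within each library, a ratio chosen after the values were seen and given without a test. The Star to Cyp11a1 ratio was 0.383, 0.361, 0.250 and 0.522 in young testis and 1.16, 1.12, 1.24 and 0.981 in elderly testis. The ratios did not overlap. Being taken within a library, the ratio does not depend on the depth or scaling of that library. The ratio of Star to Insl3 was 2.39 to 4.49 at 3 months and 8.49 to 10.3 at 21 months, again with no overlap.

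The 2 isoenzymes that turn pregnenolone into progesterone, Hsd3b6 (chr3:98805504-98814443) and Hsd3b1 (chr3:98852194-98859794), lie in 1 gene cluster on the minus strand of chromosome 3. Hsd3b6 measured 67.6, 73.3, 43.6 and 60.4 CPM in young testis and 94.8, 123, 91.1 and 93.5 CPM in elderly testis. Every elderly library was above every young one. Hsd3b6 rose by a log2 fold change of 0.70 (SE 0.11, adjusted p = 0.00168), or 1.63-fold.

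Hsd3b1 was at 66.6, 66.2, 65.0 and 74.7 CPM in young testis and at 68.1, 92.7, 76.2 and 66.2 CPM in elderly testis. The groups overlapped, and the log2 fold change was 0.14 (SE 0.08, adjusted p = 0.607). Reads that fit both paralogs equally could be dropped or shared by the counting, so the split between them is less certain than the sum.

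The share of Hsd3b6 in the counts of the pair was 50.4%, 52.5%, 40.2% and 44.7% at 3 months and 58.2%, 57.0%, 54.5% and 58.6% at 21 months. The means were 46.9% ± 5.60 and 57.1% ± 1.86 (SD, n = 4 each), and the lowest elderly library was above the highest young one. The difference of 10.1 percentage points had p = 0.0286 in a two-sided exact permutation test, the smallest value that 70 splits of 4 against 4 libraries can give. The share was chosen with earlier results of these data known and restates the rise of Hsd3b6 in the same libraries, so this p is no separate support for it. The other genes of the cluster were nearly silent in the testis: Hsd3b2 and Hsd3b3 had means of at most 0.0275 CPM, and Hsd3b4 and Hsd3b5 were at 0 in all 8 libraries. Hsd3b7, a related enzyme of bile acid synthesis, had means of 0.424 and 0.453 CPM.

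**Figure D2:**
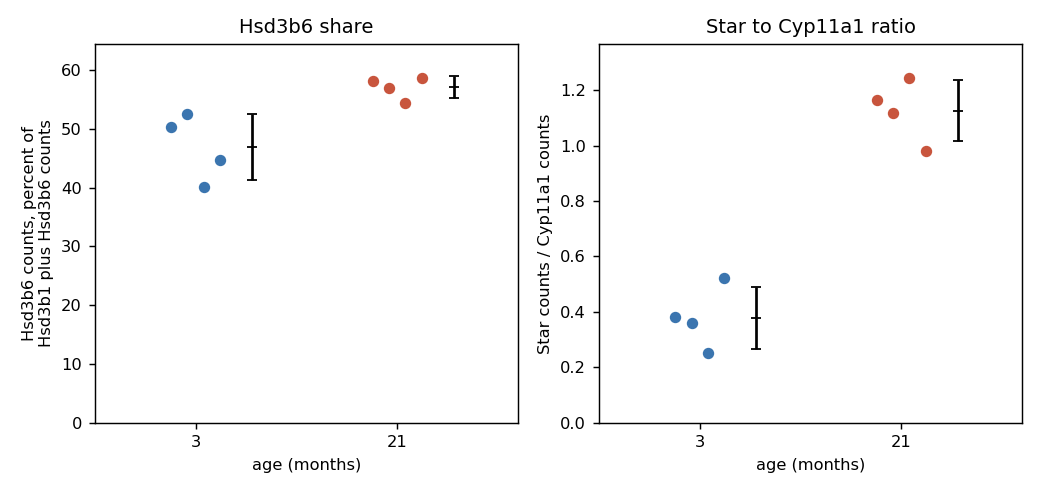
Left, Hsd3b6 counts as a percent of Hsd3b1 plus Hsd3b6 counts; right, Star counts divided by Cyp11a1 counts, in the testis at 3 and 21 months, 1 point per library with mean and SD. In both panels the 4 elderly points lie above the 4 young ones, with mean ratios of Star to Cyp11a1 of 0.379 and 1.13.

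Cyp17a1 (chr19:46667165-46673172) has the hydroxylase and lyase activities that lead from progesterone to androstenedione. It measured 205, 272, 238 and 173 CPM in young testis and 155, 229, 140 and 172 CPM in elderly testis. The groups overlapped, and the second elderly library was as high as the young ones. The log2 fold change was -0.36 (SE 0.11), with an unadjusted p of 0.0036 and an adjusted p of 0.172, so it did not pass. At about the same fold change (-0.36 in each) the adjusted p was 9.48e-07 when no filter on low counts was applied and 0.528 by DESeq2, so the call depended on the setting. Without that elderly library the fold change was -0.52 (adjusted p = 0.0278), and without the young library that was lowest in it, it was -0.46 (adjusted p = 0.0426).

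Hsd17b3 (chr13:64058266-64089230), which makes testosterone from androstenedione, was at 17.6, 18.5, 18.6 and 17.9 CPM in young testis. In elderly testis it was at 17.7, 21.9, 18.6 and 13.8 CPM. The young libraries lay inside the wider range of the elderly ones, and the log2 fold change was -0.03 (SE 0.10, adjusted p = 0.960), with a 95% interval from -0.23 to 0.17.

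Lhcgr (chr17:88716481-88791990), the receptor through which luteinizing hormone drives the whole route, had 7.17, 9.47, 8.76 and 9.22 CPM in young testis and 5.69, 8.81, 6.93 and 5.94 CPM in elderly testis. The groups overlapped, and the fold change on the log2 scale was -0.35 (SE 0.14, adjusted p = 0.323), with a 95% interval from -0.62 to -0.09 before adjustment over genes.

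Nr5a1 (chr2:38692656-38714542), present in Sertoli cells as well as Leydig cells, was at 36.4, 42.6, 34.6 and 36.9 CPM in young testis and at 35.3, 40.6, 38.5 and 43.4 CPM in elderly testis. Its groups overlapped throughout, and its log2 fold change was 0.05 (SE 0.08, adjusted p = 0.878). An antisense gene, Nr5a1os, overlaps it but shares none of its 4241 exon bases.

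Insl3 (chr8:71689214-71690575), the peptide hormone of the Leydig cell, was at 8.98, 8.59, 11.2 and 8.12 CPM in young testis and at 6.63, 9.52, 6.72 and 6.61 CPM in elderly testis. In 3 of the 4 elderly libraries it lay below every young library, and the second elderly library lay among the young ones. The log2 fold change was -0.34 (SE 0.13), with an unadjusted p of 0.0177 and an adjusted p of 0.337. It did not pass the test under any alternative fit or with any testis library left out.

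The Insl3 counts carry a further limit. The gene lies wholly inside Jak3 on the same strand, and 404 of its 623 exon bases, 64.8%, are also exon of Jak3. Reads from those bases cannot be assigned to 1 of the genes by position or by strand, and how the counting treated them is not given in the sources used here. Jak3, a kinase of lymphoid cytokine receptors, was at 11.1 to 12.8 CPM in young testis and at 8.90 to 13.7 CPM in elderly testis, so its counts did not separate by age there. The Insl3 level per kilobase may therefore be too low or may hold Jak3 reads, and its part in the result was not tested.

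**Figure D3:**
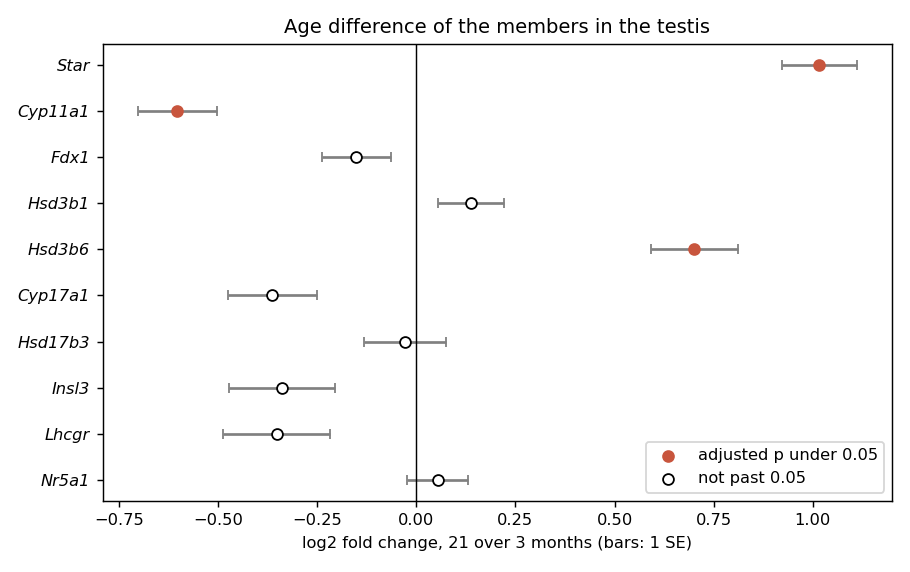
Log2 fold change of the 10 genes in the testis, 21 over 3 months, with bars of 1 SE; filled points had an adjusted p under 0.05 in the edgeR quasi-likelihood test. Star and Hsd3b6 lie to the right of 0 at 1.02 and 0.70, Cyp11a1 lies to the left at -0.60, and the 7 open points lie between -0.36 and 0.14.

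The second elderly testis library was the highest of the 4 elderly libraries for 9 of the 10 genes, with a median ratio of 1.31 to the mean of the other 3. Only Nr5a1 was higher in another library. In young testis no library led in more than 5 of the 10. Without the second elderly library, Star had a log2 fold change of 0.94 and Cyp11a1 of -0.69, and both still passed, as did Hsd3b6 at 0.59. No alternative setting turned the direction of any of these 3.

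Around the 10 genes, 68 further genes of the pathway were read in the testis, from 7 lists, and 63 were abundant enough to test. None was called by the edgeR quasi-likelihood test or by DESeq2, and 10 had an unadjusted p under 0.05 (7 higher and 3 lower at 21 months), where 10.4% of all genes tested did. The median log2 fold change was 0.02. Sult1e1, an estrogen sulfotransferase of Leydig cells that was named after its values were seen, had a log2 fold change of 0.43 (SE 0.13, adjusted p = 0.167).

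By list, cholesterol supply (22 genes tested) had a median log2 fold change of -0.0023, electron transfer (4) of -0.05 and other steroid enzymes (9) of -0.06. LH and cAMP signalling (8) had 0.04, Leydig lineage regulators (10) 0.07, other Leydig cell genes (6) 0.14, and androgen and Insl3 response (4) 0.05. In the last list was Rxfp2, the Insl3 receptor, at means of 14.3 CPM in young and 15.8 CPM in elderly testis. The summed level of LH and cAMP signalling was 1026 to 1145 CPM in young and 1101 to 1199 CPM in elderly testis. Genes of cholesterol supply, such as the lipoprotein receptor Scarb1 at 98.6 ± 2.88 and 108 ± 5.38 CPM (SD, n = 4) and the hormone-sensitive lipase Lipe at 386 ± 31.5 and 439 ± 16.8 CPM, did not pass either. All these values are of whole testis, so they do not show the level of these genes in Leydig cells.

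**Figure D4:**
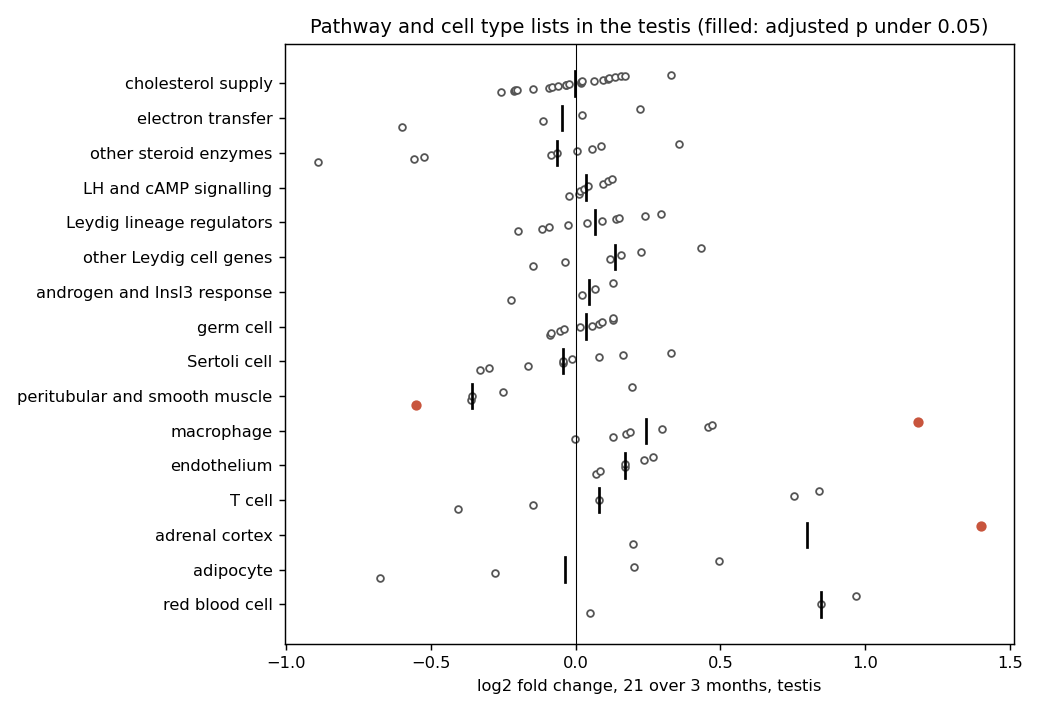
Log2 fold change in the testis (21 over 3 months) of every tested gene in the 7 pathway lists and the 9 cell type lists, 1 point per gene, with a vertical bar at the list median. Filled points passed the test: Cyp21a1 at 1.40, Cd68 at 1.18 and Myh11 at -0.55, and none of them belongs to a pathway list.

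Markers of the other cells of the testis were read beside these results. None of 10 germ cell genes was called (median log2 fold change 0.04), with Prm1 at means of 2464 and 2633 CPM and Prm2 at 2782 and 3074 CPM. None of 9 Sertoli cell genes was called, and their sum was 238 to 253 CPM in young and 244 to 264 CPM in elderly testis. Their log2 fold changes ran from -0.33 to 0.33, with a median of -0.04, and the highest was that of Sox9. Sox9, a Sertoli cell factor, was at 16.5, 16.95, 18.6 and 16.5 CPM and then at 25.9, 21.0, 21.0 and 19.3 CPM, with no overlap, and its adjusted p was 0.119.

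Of 8 macrophage genes 1 rose. Cd68, a lysosomal protein of macrophages, was at 1.81, 1.82, 1.43 and 1.51 CPM in young testis and at 3.76, 4.73, 3.28 and 3.33 CPM in elderly testis, a log2 fold change of 1.18 (SE 0.18, adjusted p = 0.00168). In the fit of all 56 libraries its call was lost (adjusted p = 1). The sum of the list was 85.7 to 106 CPM and then 105 to 122 CPM, and C1qc, a complement subunit, had 0.47 (SE 0.12, adjusted p = 0.0752). Of 5 genes of peritubular and smooth muscle cells 1 fell: Myh11, smooth muscle myosin, was at 31.4 to 42.8 CPM and then at 23.4 to 28.8 CPM, a log2 fold change of -0.55 (SE 0.09, adjusted p = 0.00277), a call that was lost in the fit of all 56 libraries (adjusted p = 0.406). Acta2, smooth muscle actin, had -0.25 (SE 0.07, adjusted p = 0.149), and Des, the filament protein desmin, had 0.20 (SE 0.13, adjusted p = 0.646). The list median was -0.36, and 4 of the 5 were lower at an unadjusted p under 0.05, where 10.4% of all genes had such a p in either direction. The sum of these 5 was 100 to 124 CPM in young and 86.6 to 100 CPM in elderly testis, and its part in the changes of Cyp11a1 and Star was not tested.

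No gene of the endothelium, T cell, adipocyte or red blood cell lists was called. The median log2 fold changes were 0.17, 0.08, -0.04 and 0.85, and the endothelium list, with a log2 fold change above 0 for all 6 genes, summed to 48.7 to 56.9 CPM at 3 months and to 57.3 to 70.6 CPM at 21 months, with no overlap. Its part in the changes of the Leydig cell genes was not tested. The red blood cell list summed to 23.7 to 30.1 CPM at 3 months and to 21.8 to 53.5 CPM at 21 months.

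A marker of another steroid-making cell stood out in the same libraries. Cyp21a1, the 21-hydroxylase that the adrenal cortex uses to make corticosteroids, rose in the testis from 1.02, 0.826, 1.05 and 1.22 CPM to 2.43, 2.77, 3.44 and 2.33 CPM. Every elderly library was above every young one, and the log2 fold change was 1.40 (SE 0.22, adjusted p = 0.00168). In the fit of all 56 libraries the adjusted p was 0.931. The other adrenal cortex markers were at or near 0: Cyp11b2 had no count in any of the 8 testis libraries, Cyp11b1 had means of at most 0.0141 CPM and Mc2r, the corticotropin receptor, of at most 0.0824 CPM. The near-identical pseudogene Cyp21a2-ps had no count in young testis and 1 or 2 counts in each elderly library, and reads shared by the pair may have been split or dropped.

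To assess how far the 10 genes mark the testis, the testis was compared with the mean of the other 6 regions at each age. The fit took libraries of different regions as independent, although the same mice gave all of them. All 10 were higher in the testis at both ages, where 44.1% of 34475 genes were so called at 3 months and 43.1% of 34552 at 21 months. The log2 difference was smallest for Fdx1, at 1.10 at 3 months and 0.75 at 21 months. It was highest for Hsd3b1, Hsd3b6, Hsd17b3 and Nr5a1, whose fitted values rest on groups with no count at 1 or both ages and are not given. When the testis was set against the 6 regions 1 by 1, 9 of the 10 were higher in the testis against every one at 3 months and 8 at 21 months. The exceptions were all against the corpus, and were Cyp17a1 at both ages and Fdx1 at 21 months.

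**Figure D5:**
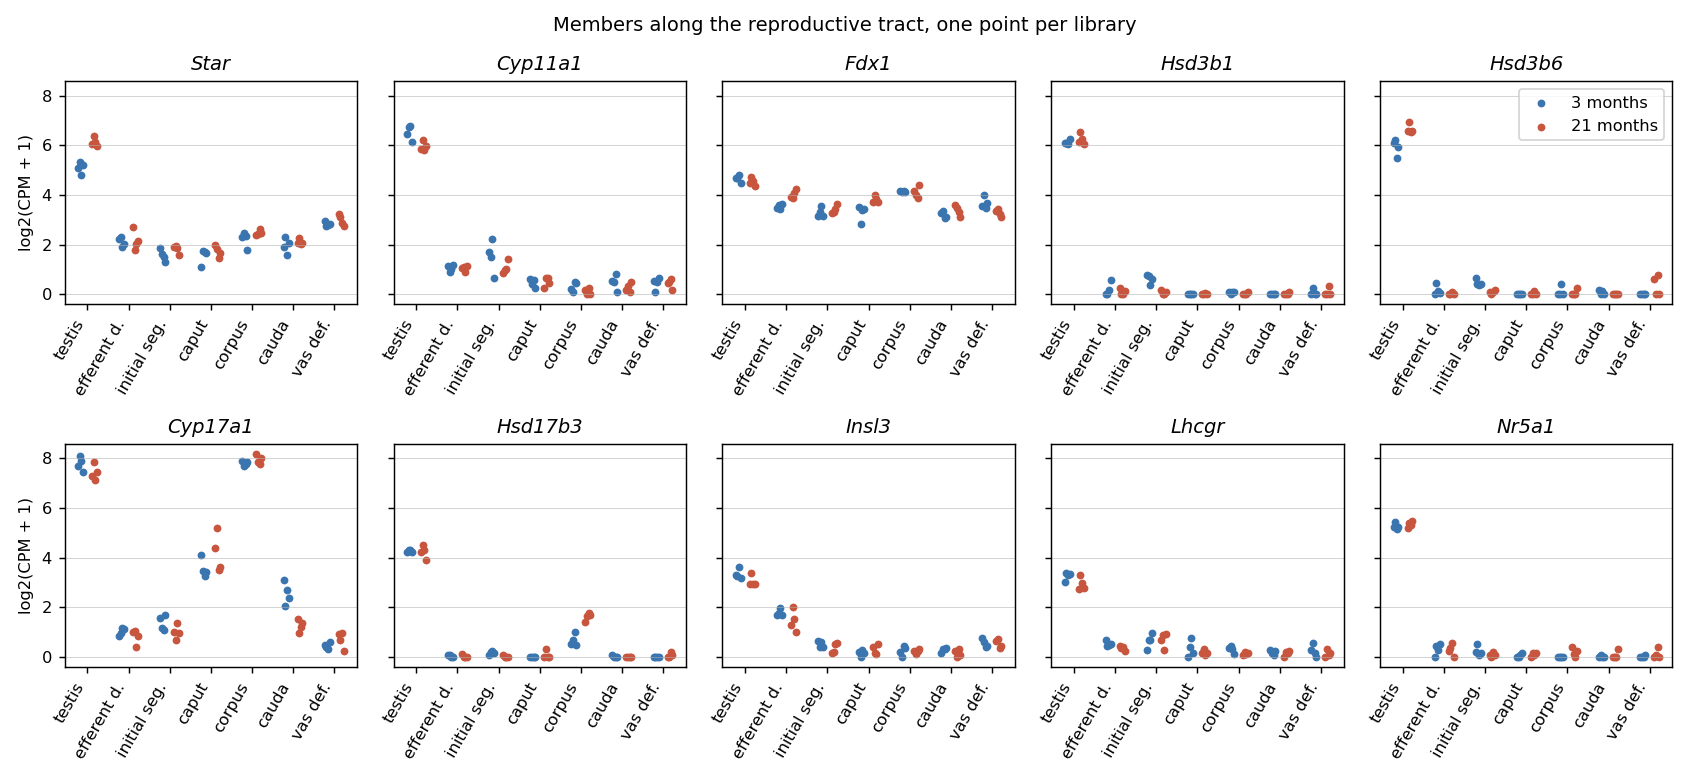
Levels of the 10 genes in the 7 regions as log2(CPM + 1), 1 point per library, young in blue and elderly in red. Points at or near 0 outside the testis mark Hsd3b1, Hsd3b6, Hsd17b3 and Nr5a1, whereas Fdx1 stays at 6.21 CPM or more in every library. Cyp17a1 in the corpus epididymis is as high as in the testis at 3 months. At 21 months its mean there is higher, with overlapping libraries.

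Hsd3b1, Hsd3b6, Hsd17b3 and Nr5a1 were close to absent outside the testis. In 9 combinations of these genes with a region and an age, all 4 libraries had no count. Set against a floor of 3 counts over the 4 libraries, which covers counting error only, Hsd3b6 was at least 1425-fold higher in young testis than in young vas deferens, and Nr5a1 was at least 754-fold higher than in the corpus. The remaining groups had mean levels of at most 0.543 CPM, except for Hsd17b3 in the corpus.

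Star, Cyp11a1 and Lhcgr were low but present elsewhere. Star was next highest in the vas deferens, at 5.64 to 6.77 CPM in young and 5.66 to 8.40 CPM in elderly mice. Its libraries there did not overlap those of any other region. Cyp11a1 was next highest in the initial segment, at 0.584 to 3.64 CPM at 3 months, and Lhcgr did not exceed 0.973 CPM in any library outside the testis.

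Fdx1 was the most widely spread of the 10. It was at 21.4 to 27.2 CPM in young testis and next at 16.3 to 16.9 CPM in the young corpus, a log2 difference of 0.43 (SE 0.14, adjusted p = 0.00686). At 21 months testis and corpus overlapped, with a log2 difference of 0.24 (SE 0.14, adjusted p = 0.132) and a 95% interval that ran from -0.04 to 0.52.

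Cyp17a1 was at least as high in the corpus epididymis as in the testis. The young corpus measured 236, 205, 219 and 231 CPM and the elderly corpus 288, 230, 218 and 259 CPM. The caput came next, at 8.71 to 16.3 CPM in young and 10.3 to 35.7 CPM in elderly mice, and no other library outside these 3 regions exceeded 7.47 CPM. At 3 months testis and corpus differed by -0.13 on the log2 scale (SE 0.18, adjusted p = 0.528), testis minus corpus, and at 21 months by -0.71 (SE 0.26, adjusted p = 0.0169), so elderly corpus was on average above elderly testis. The libraries of testis and corpus overlapped at both ages. The corpus libraries with this level had Cyp11a1 at 0.424 CPM or less, Hsd3b1 at 0.0761 CPM or less and Hsd3b6 at 0.318 CPM or less. The enzymes that make its substrate were thus not at a comparable level there. The regulator Nr5a1 was at 0.313 CPM or less.

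Insl3 was next highest in the efferent ductules, at 2.20, 2.39, 2.91 and 2.19 CPM at 3 months and at 1.46, 3.02, 1.90 and 1.001 CPM at 21 months. Jak3, which shares its exon bases, was at 79.1 to 91.8 CPM and then at 64.5 to 100 CPM in these libraries, the highest of any region at both ages, and the part of Jak3 reads in the Insl3 counts was not tested. In the other 5 regions Insl3 stayed at or below 0.695 CPM.

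Age was then tested in each of the other regions, where most of the 10 were too low to follow. In the efferent ductules 1 of the 9 tested was called, where 6.99% of 25944 genes were. Fdx1 was at 10.02, 11.2, 9.87 and 11.5 CPM and then at 14.2, 13.8, 15.7 and 17.7 CPM, with no overlap, and a log2 fold change of 0.54 (SE 0.13, adjusted p = 0.0321). Fdx1 and Lhcgr were the 2 of 10 whose young and elderly libraries were fully separate there, as 18.0% of genes were, and Lhcgr (adjusted p = 0.328) was at 0.630 CPM or less throughout. Scaled by library size alone, which moved the median of all genes there from -0.04 to -0.38, Fdx1 had 0.20 (adjusted p = 0.310). It also lost the call without any 1 of the 4 young libraries or without elderly replicate 3 or 4, with adjusted p up to 0.106. In the same libraries the sum of the macrophage list was 277 to 336 CPM and then 418 to 562 CPM, that of the T cell list 4.84 to 5.67 CPM and then 12.7 to 13.8 CPM, and the share of Gm42418 1.27% to 3.29% and then 4.93% to 22.2%. Their part in the result was not tested.

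In the initial segment 1 of 10 was called, where 6.36% of 24944 genes were. Hsd3b1 fell from 10, 12, 5 and 8 counts to 2, 0, 0 and 1, a log2 fold change of -3.21 (SE 0.74, adjusted p = 0.0187), at levels of at most 0.709 CPM. The call was lost without any 1 of 5 of the 8 libraries (young replicates 1 and 2, elderly replicates 2, 3 and 4), with adjusted p of 0.0504 to 0.0550. Young and elderly libraries were fully separate for 3 of the 10 (Hsd3b1, Hsd3b6 and Hsd17b3), as for 12.3% of genes. Hsd3b6 had 8, 6, 5 and 5 counts and then 1, 0, 1 and 2 (adjusted p = 0.0723). The mean level of Hsd3b1 there was 0.797% of that in young testis and Hsd3b6 was 0.617%, while the germ cell list was at 0.634%. At 21 months these were 0.0632%, 0.0679% and 0.133%. The 2 enzymes thus moved beside germ cell markers in these libraries, and the part of testis RNA in the result was not tested. Other lists also had fully separate ages there, with sums of 199.8 to 214 CPM and then 248.6 to 321 CPM for macrophages, 4.87 to 5.74 CPM and then 8.21 to 11.4 CPM for T cells and 661 to 1050 CPM and then 564 to 635 CPM for smooth muscle, and their part was not tested either.

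In the corpus epididymis 1 of 7 was called, where 2.97% of 24886 genes were. Hsd17b3 rose from 6, 9, 19 and 5 counts to 27, 29, 26 and 34 counts, or from 0.381 to 1.01 CPM to 1.69 to 2.43 CPM. No young library reached an elderly one. Its log2 fold change of 1.73 (SE 0.34, adjusted p = 0.00932) passed in every alternative fit and with any 1 library left out. The germ cell list was at 2.13% of its testis mean in the young and 2.48% in the elderly corpus. The T cell sum was 4.95 to 7.33 CPM and then 9.44 to 13.995 CPM there, and its part in the result was not tested. Cyp17a1 in the same libraries had 0.15 (SE 0.10, adjusted p = 0.449).

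In the caput, cauda and vas deferens none of the tested genes was called by the edgeR quasi-likelihood test, where 8.14%, 0.128% and 19.9% of genes were. DESeq2 called 1, 1 and 0, and its share over all genes is not given here. In the edgeR test 2, 1 and 2 had an unadjusted p under 0.05, as did 25.0%, 10.5% and 34.2% of genes. In each of the 3 regions 1 of the 10 had fully separate ages (Fdx1, Cyp17a1 and Fdx1), where 16.7%, 8.41% and 25.0% of genes did. In the cauda, Cyp17a1 was at 7.47, 3.13, 5.43 and 4.12 CPM and then at 1.88, 0.978, 1.32 and 1.59 CPM, with no overlap. Its log2 fold change was -1.79 (SE 0.31, adjusted p = 0.0643), and by DESeq2 the adjusted p was 7.61e-05. The smooth muscle sum was 4192 to 6198 CPM and then 2620 to 4167 CPM in these libraries, and its part was not tested. The macrophage sum was 1531 CPM in the third young library and 320 to 345 CPM in the other young ones, and without that library Cyp17a1 had -1.74 (adjusted p = 0.0741). In the caput, Cyp17a1 had 0.78 (SE 0.35, adjusted p = 0.179), or 0.30 (adjusted p = 0.568) without the second elderly library. Fdx1 had 0.51 there (SE 0.16, adjusted p = 0.0638). Fdx1 did not overlap between the ages there, at 6.21 to 10.5 CPM and then 12.1 to 14.9 CPM, and its adjusted p by DESeq2 was 0.0317. The lowest of these was the library in which Gm42418 took 49.7% of the counts, and without it Fdx1 had 0.41 (adjusted p = 0.0874). Of the lists in the caput, the T cell sum was 2.70 to 4.97 CPM and then 8.29 to 13.6 CPM, the macrophage sum 138 to 156 CPM and then 157 to 181 CPM and the smooth muscle sum 912 to 1263 CPM and then 653 to 728 CPM. The sums of the Sertoli cell and germ cell lists were lower in every elderly caput library than in any young one, and the part of these lists was not tested. Outside the testis the Sertoli cell list does not mark Sertoli cells. Its median sum was 344 CPM in the young initial segment and 248 CPM in young testis. In the vas deferens Fdx1 had -0.42 (SE 0.15, adjusted p = 0.0653), and Hsd3b6 had no count at 3 months and 9, 0, 13 and 0 counts at 21 months (adjusted p = 0.0899). There the T cell sum was 6.02 to 9.04 CPM and then 18.0 to 49.4 CPM and the smooth muscle sum 11240 to 11998 CPM and then 12486 to 18313 CPM, and their part was not tested.

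To ask whether the age effect in the testis differed from that in the other regions, the difference itself was tested over all 56 libraries. Here too libraries of the same mouse were taken as independent. None of 8 genes with an estimate was called by the edgeR quasi-likelihood test, where 0.0649% of 36977 genes were, and 2 had an unadjusted p under 0.05 (Star and Nr5a1), as did 5.54% of genes. Hsd3b6 and Hsd17b3 gave no usable estimate. Groups with no count also entered the fits of Nr5a1 (young corpus) and Hsd3b1 (young caput and cauda). For Star the age effect in the testis exceeded the mean of the other regions by 0.80 on the log2 scale (SE 0.19, adjusted p = 0.0907), and by DESeq2 by 0.77 (adjusted p = 0.0159). In each of the other 6 regions the fold change of Star was above 0, between 0.12 and 0.34, and none passed. Cyp11a1 had a difference of 0.02 (SE 0.19, adjusted p = 0.9999).

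Across the 14 means of region and age, the genes whose pattern was most like that of Insl3, Star, Nr5a1 or Fdx1 were sought. The search covered 19685 genes with a mean of at least 1 CPM, by Pearson's r of log2(CPM + 1). These are descriptions over points that share libraries and depth. A gene that is high in the testis and low elsewhere can reach a high r, so r does not show which cell holds it. Insl3 was most like Kbtbd4 (r = 0.994), Efcab11 (0.993) and Trim71 (0.992). Star was most like Dscam (0.985), Syt11 (0.981) and Zfp169 (0.981). Nr5a1 was most like Tmprss12, 1700017J07Rik and Gm20715, each with r above 0.999, and Fdx1 was less closely matched, by Pex16 (0.925), Gm9923 (0.922) and Spaca9 (0.922). Of these, Dscam was at 4.25 CPM in young and 5.94 CPM in elderly testis.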

How the data were processed

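The authors deposited 1 table of read counts per Ensembl gene, whole numbers without normalization, for 56 libraries. By the study's methods, stranded total RNA libraries were read as paired ends and aligned with Hisat2 to GRCm38. The submitters' processing notes name cutadapt, HISAT2, HTSeq and mm10. Versions, the annotation used for counting and the strand setting are not given in the sources used here. All 56 columns were matched to samples by their labels, and 0 were unmatched.

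Symbols, positions and exon lengths came from GENCODE M21, which matched 53274 of 53379 genes. Age (21 against 3 months) was tested region by region in R 4.3.3. The edgeR 4.0.16 quasi-likelihood test was applied after TMM normalization to genes with at least 10 counts in total, adjusted by Benjamini-Hochberg over all genes tested. The study names DESeq2 for its differential expression, and DESeq2 1.42.0 was run as an alternative. The test was checked on simulated counts. Regions were compared in the 28 libraries of 1 age, and the age effect between regions in all 56. CPM values used TMM factors over all libraries. For the edgeR fits, SE is the absolute log2 fold change divided by the square root of F. Intervals are the estimate and its SE on a normal scale, so they can differ from the F-test, and are not adjusted over genes. Tables and figures were made in Python 3.11.15.

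The 10 genes and the 16 lists (123 genes) were chosen with earlier results of these data known. Named genes were the 10, the list genes that passed in the testis with a mean of at least 1 CPM, filled up to 6 by the smallest p (Cd68, Cyp21a1, Myh11, C1qc, Sox9, Acta2), Prm1, Prm2, the Hsd3b cluster and the genes of most similar pattern. Others were named after their values were seen. Single values of some list genes are not reported here. Replicate numbers were checked for pairing: in none of 19 pairs of groups did all same-numbered libraries correlate above 0.1. Such a check cannot show whether the numbers mark the same mouse across regions. No pair of libraries within a group agreed within counting noise (the lowest mean squared residual was 3.03 times that of counting error). The number of counts limits the precision of every gene at a few counts.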

Additional observations from a re-analysis of the deposited data

Results flagged for a closer look

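Each group of 4 libraries was searched for a library far from the other 3 in any of the 10 genes with a mean of at least 1 CPM (60 groups). Chance alone marks about 1 in 20 groups, and 5 were marked. In elderly testis the second library was far above the others for Hsd3b6 (123 CPM) and for Insl3 (9.52 CPM), the same library that was highest for 9 of the 10 genes. In young testis the fourth library was far above the others for Hsd3b1 (74.7 CPM). In the young caput 1 library was far above the others for Cyp17a1 (16.3 CPM), and the same library was far below them for Star (1.15 CPM). By the edgeR quasi-likelihood test, 0 of the 8 genes that could be fitted had an age effect in the testis that differed from the other regions, with 2 at an unadjusted p under 0.05, and DESeq2 called 1, Star (0.77, adjusted p = 0.0159).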

How the results depend on the processing

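Apart from the fit of all 56 libraries, which called 1 of the 10 genes in the testis (Star), every alternative left Star, Cyp11a1 and Hsd3b6 called, and leaving out 1 testis library gave 3 to 4 calls. The fit without a filter called 486 genes in the testis, against 169. Pathway genes called in the testis went from 0 to 2 with no filter (1 of them Sult1e1) and to 0 to 1 with a library left out. With the replicate numbers as a block, 1 pathway gene was called (Sult1e1), members called were 0 in the efferent ductules and 1 in the cauda, and Cyp17a1 in the testis passed (-0.37, adjusted p = 0.0178), as it did with no filter (-0.36, adjusted p = 9.48e-07). The fit of all libraries also ended the calls of Cd68, Myh11 and Cyp21a1. With no filter C1qc, Sox9 and Acta2 passed (adjusted p of 0.0314, 0.0291 and 0.0394), C1qc also by DESeq2 (0.0441). The share of Hsd3b6 kept its difference of 10.1 percentage points under that pairing with an exact permutation p of 0.125, the smallest that 4 pairs can give, and ran from 7.86 to 11.99 with 1 library left out, with no overlap of the groups. The exact p was then 0.0286 without a young library and 0.0571 without an elderly one, which at this number of libraries says nothing about stability. The labels do not say whether the numbers mark a mouse, and young and elderly mice were different animals. These values are therefore only a reading of the labels.

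In the other regions the calls were less stable. The counts that follow are of the 10 genes, and the shares of all genes called under the same settings are not given. They show only how far the calls moved with the setting. In the efferent ductules 0 were called with library size only and 0 by the study's rule (unadjusted p under 0.05 and at least 1.5-fold). In the initial segment 0 were called with the stricter count filter, which leaves Hsd3b1 untested, and 3 by the study's rule. In the caput, where 25.0% of genes had an unadjusted p under 0.05 in the main fit, 1 was called with no filter, 1 by DESeq2, 2 in the fit of all libraries and 1 by the study's rule. In the cauda each of these 4 settings called 1. In the vas deferens library size only, the fit of all libraries and the study's rule called 1 each. For the difference of age effects, where 5.54% of genes had an unadjusted p under 0.05 in the main fit, DESeq2 called 1 and the study's rule 2. With 1 library left out the calls ranged from 0 to 2 in the initial segment and from 0 to 1 in the caput, the vas deferens and the efferent ductules. Hsd17b3 in the testis ran from -0.13 to 0.08 with a library left out, so its sign was not fixed (0.0787 without elderly replicate 4). The cause of these changes was not tested, except where a setting tested fewer genes. All 10 genes were higher in the testis than in the mean of the other regions under each alternative that used this mean, while 9 at 3 months and 8 at 21 months were higher than in every single region. Levels of a few counts, as for Hsd3b1 outside the testis, limit what age comparisons there can show.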
